A study of Drosophila melanogaster with 8 samples.

Results

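Fbp2 and Aldh-III are fly genes related to alcohol and aldehyde dehydrogenases, and every clone annotated to either was taken by its platform symbol or by the current symbol of its Entrez identifier. Each gene had 1 clone, so 2 of the 8448 clones on the array (4 of 16896 spots) were described, 1 for Fbp2 and 1 for Aldh-III. The samples were RNA from 8 pools of about 240 adult females of the wild-type strain Oregon-R, 4 to 10 days old, held at 60% relative humidity under 16 h of light and 8 h of dark. In a Potter's tower, which applies a spray evenly, every pool had received 2 mL of 99% ethanol, and it was sampled 6 h later. Pools 1 and 2, 3 and 4, 5 and 6, and 7 and 8 formed pairs 1 to 4, and each pair was hybridized on 1 normal-label array (odd pool in Cy3, even pool in Cy5) and 1 reversed-label array with the dyes exchanged, giving 4 arrays per label group. All groups thus shared the strain, sex, spray and sampling time, no unsprayed flies were among them, and the response of either gene to ethanol could not be measured. The values are ratios between pools of whole flies, with no level for either gene, so its abundance and the presence of marker genes of a tissue could not be read from them.

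In flies, ethanol is oxidised to acetaldehyde by alcohol dehydrogenase, a short-chain dehydrogenase abundant in the fat body and gut, and acetaldehyde is oxidised further to acetate by aldehyde dehydrogenases. Fbp2 (fat body protein 2) encodes a protein related in sequence to alcohol dehydrogenase and is known for its expression in the fat body of late larvae. Aldh-III belongs to the aldehyde dehydrogenase family, in the branch that handles long-chain aldehydes derived from lipids. No clone annotated as Adh or Aldh, the main enzymes of both steps, was analysed here. In the RefSeq gene table, Mco1 and CG42847 are the protein-coding neighbours of Fbp2, and p47 and wech those of Aldh-III, of which only wech had a clone (1).

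The arrays were not alike. The share of clones past 2-fold ran from 0.604% to 7.63%, with the highest on the normal-label array of pair 3, and duplicate spots correlated at 0.251 to 0.569. Among arrays of reversed label, that of pair 3 was unlike the rest, correlating with them at -0.14 to 0.032. Results are therefore also given without these arrays.

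The Fbp2 clone lay close to 0 in pairs 1 and 2 and moved further out in pairs 3 and 4. Its log2 ratios (signs as deposited, array median 0, mean of both spots) in pairs 1 to 4 with normal label were 0.012, -0.013, 0.67 and 0.39. On the reversed-label arrays of the same pairs they were -0.023, -0.12, 0.077 and -0.36. The normal-label arrays of pairs 3 and 4 were the high ones and the reversed-label array of pair 4 the low one, and the ranges of the label groups overlapped. The mean was 0.26 ± 0.33 (SD, n = 4 arrays) with normal and -0.11 ± 0.19 (SD, n = 4 arrays) with reversed label. The value furthest from 0 was a ratio of 1.59-fold, and 0 of 8 arrays passed 2-fold, whereas 12.8% of all clones passed it on at least 1 array.

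The Aldh-III clone kept to a narrower range and mostly took the opposite sign. Its log2 ratios in pairs 1 to 4 with normal label were -0.11, -0.11, -0.38 and -0.25, all below 0. On the reversed-label arrays they were 0.076, 0.29, -0.13 and 0.024, of which 3 of 4 lay above 0. The exception was the reversed-label array of pair 3, unlike the rest of its label group, and its value of -0.13 put the label groups' ranges into overlap. The mean was -0.21 ± 0.13 (SD, n = 4 arrays) with normal and 0.064 ± 0.17 (SD, n = 4 arrays) with reversed label. The furthest value was 1.31-fold, again with 0 of 8 arrays past 2-fold.

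**Figure D1:**
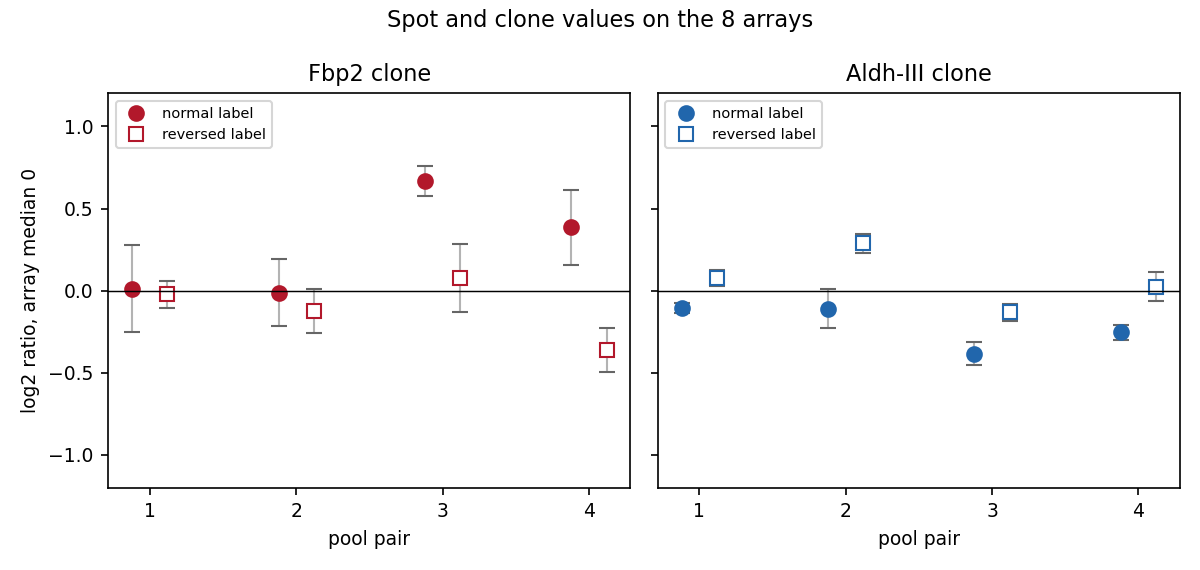
Log2 ratio (y axis, array median 0, signs as deposited) of the Fbp2 clone (left) and the Aldh-III clone (right) by pool pair (x axis), with filled circles for normal-label and open squares for reversed-label arrays, and grey bars joining the 2 spots of the clone. The Fbp2 values reach 0.67 and -0.36, while all Aldh-III values lie between -0.38 and 0.29 with their spots close together.

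The spots of the clones differed in how well they repeated. The 2 spots of Aldh-III were 0.057 to 0.24 log2 units apart (mean 0.13 over 8 arrays), a mean gap at the 14.0th percentile of all clones, whose median was 0.25. Those of Fbp2 were 0.17 to 0.53 apart (mean 0.34), at the 67.8th percentile, and they took opposite signs on 5 of 8 arrays, against 2 of 8 for Aldh-III. On the normal-label array of pair 1, for example, the Fbp2 spots read -0.25 and 0.28, and their mean near 0 is an average of unlike values. On the normal-label array of pair 3 both Fbp2 spots were above 0, at 0.76 and 0.58.

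Set among all 8448 clones, neither gene was unusually variable. The SD over the 8 arrays was 0.32 for Fbp2, at the 55.8th percentile, and 0.21 for Aldh-III, at percentile 20.2, with a median of 0.30 and quartiles of 0.22 and 0.40 over all clones. These ranks describe the clones and carry no test.

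**Figure D2:**
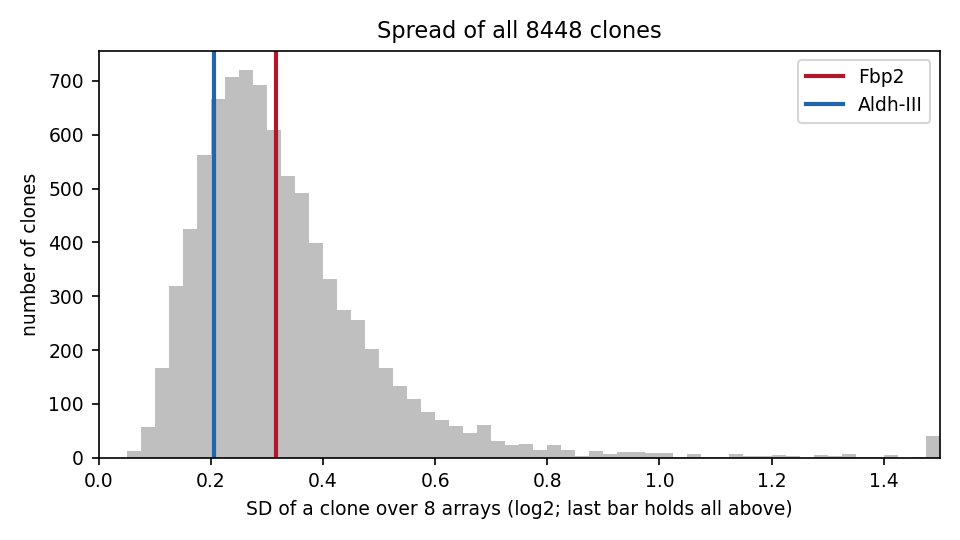
Histogram of the SD of each clone over the 8 arrays (x axis, log2 units) against the number of clones (y axis), the last bar holding the 38 clones above 1.5. The line of Aldh-III at 0.21 lies below the median of 0.30 and that of Fbp2 at 0.32 just above it.

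The first comparison was of the dyes. The dye component of a pair is what its ratios owe to the dye and not to the pools, computed as the mean of its normal-label value and its reversed-label value turned in sign. It was tested against 0 over 4 pairs with limma across all clones. Which dye is the numerator is not settled by the labels, so no dye is named. The labels also do not settle whether each value is 1 pool or 1 dye over the other. The first was taken from the data, and with the second the dye and even-odd values given here would exchange places. The Fbp2 clone leaned one way in 4 of 4 pairs, with 0.017, 0.055, 0.30 and 0.37 in pairs 1 to 4. The mean was 0.19 ± 0.18 (SD, n = 4 pairs), or 1.14-fold, with a 95% interval of -0.0089 to 0.38, and it did not pass (limma, unadjusted p = 0.0588, adjusted p = 0.207). The Aldh-III clone leaned the other way in 4 of 4 pairs, with -0.091, -0.20, -0.13 and -0.14. Its mean was -0.14 ± 0.045 (SD, n = 4 pairs), with a 95% interval of -0.29 to 0.0084, and it did not pass either (limma, unadjusted p = 0.0611, adjusted p = 0.211).

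Thus 0 of the 2 clones passed an adjusted p of 5% by limma, also 0 at an unadjusted p of 5%, where 8.56% of all clones passed adjusted and 26.5% unadjusted. One sign in 4 of 4 pairs was found in 34.5% of all clones, so it does not set these genes apart. The p-values ranked 2403 (Fbp2) and 2445 (Aldh-III) among the 8448 clones. The Aldh-III pairs repeated more closely than the Fbp2 pairs, in which pairs 3 and 4 carried the mean. Without the normal-label array of pair 3 the Fbp2 mean was 0.12 and that of Aldh-III -0.10 (limma, adjusted p = 0.489 and 0.501). With that of reversed label left out instead they were 0.22 and -0.18 (limma, adjusted p = 0.184 and 0.171). In these fits the remaining arrays were taken as independent, so the pool difference of pair 3 does not cancel.

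The clones stood on opposite sides of 0. Their dye components differed by 0.32 ± 0.18 (SD, n = 4 pairs), Fbp2 above Aldh-III in 4 of 4 pairs, from 0.11 in pair 1 to 0.51 in pair 4. An exact two-sided sign-flip permutation test gave p = 0.125, which is the smallest that 4 pairs allow. Array by array, the signs were opposite on 7 of 8 arrays. Of the other 8447 clones, 9.32% were opposite in sign to Fbp2 on at least 7 arrays and 8.91% agreed in sign on at least 7. The comparison of both clones was not among the planned tests, and the count of signs was made after the values were seen.

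**Figure D3:**
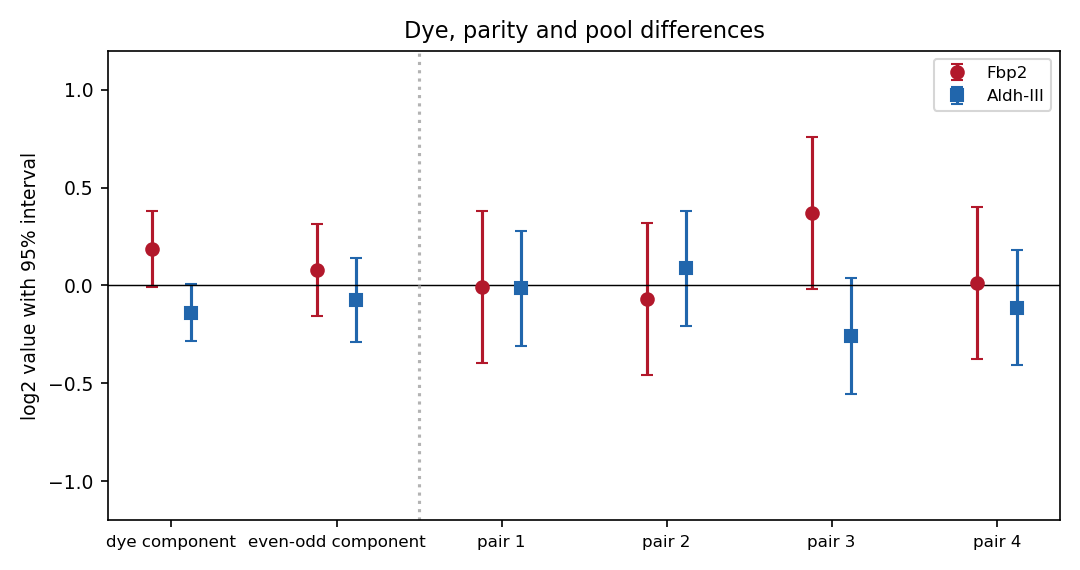
Log2 values (y axis) with 95% limma intervals (bars) of Fbp2 (circles) and Aldh-III (squares) for the mean dye component and the mean even-odd component over 4 pairs (left of the dotted line) and for the pool difference of each pair (right). All intervals include 0, and Fbp2 in pair 3 is at 0.37, in the direction taken here (0.30 with the other reading, in which its pair 4 value is 0.37).

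The second comparison asked whether the genes differed between odd and even pools, which were treated alike. The even-odd component averages both arrays of a pair with the signs as deposited, so that the dye cancels. For Fbp2 it was -0.0054, -0.068, 0.37 and 0.012 in pairs 1 to 4, so that 1 pair stood out and the signs were split 2 to 2. The mean was 0.078 ± 0.20 (SD, n = 4 pairs, 95% interval -0.16 to 0.31, limma adjusted p = 0.899). It turned to -0.021 without pair 3 and to -0.0067 without the normal-label array of that pair. The value of -0.0067 is a mean of the remaining arrays taken as independent, in which the dye does not cancel. For Aldh-III the component was -0.015, 0.089, -0.26 and -0.12, with 1 pair above 0. The mean was -0.075 ± 0.15 (SD, n = 4 pairs, 95% interval -0.29 to 0.14, limma adjusted p = 0.892). It was -0.014 without pair 3, -0.031 without the normal-label array of that pair and -0.13 without pair 2. In the value of -0.031, from arrays taken as independent, the dye does not cancel either. By limma, 0 of 8448 clones passed this test (0%), and 5.34% had an unadjusted p under 5%, with neither gene among them.

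The third comparison was between the pools of single pairs, measured against the technical spread left after the dye swap. Fitted clone by clone, that spread was 0.063 log2 units for Aldh-III, at the 3.37th percentile of all clones. For Fbp2 it was 0.25, at the 58.8th percentile. The tests and intervals used limma's moderated spread instead, in which each clone's own value is drawn towards a value common to all clones. In the limma F-test over 4 pairs, Fbp2 had an adjusted p of 0.632 and Aldh-III an adjusted p of 0.612. No clone passed that test (0 of 8448, 0%, with 14.9% at an unadjusted p under 5%). A call would speak only of these pools, since the residual is technical.

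In pair 3 (pools 5 and 6) the pool differences of the genes had opposite signs. Fbp2 stood at 0.37 (95% interval -0.017 to 0.76, limma adjusted p = 0.228) and Aldh-III at -0.26 (95% interval -0.55 to 0.036, limma adjusted p = 0.264). Neither passed, in a pair where 3.20% of all clones did and 23.8% had an unadjusted p under 5%. With the reversed-label array left out the Fbp2 value was 0.52 and without the normal-label array 0.23, and those of Aldh-III were -0.24 and -0.28. With all arrays scaled to one spread, the pair 3 values were 0.25 for Fbp2 and -0.19 for Aldh-III. In pairs 1, 2 and 4 Fbp2 lay between -0.068 and 0.012 and Aldh-III between -0.12 and 0.089, with limma adjusted p from 0.933 to 0.995 and 0% of clones called in each. The order of the pairs rests on the direction taken for the ratios. With the other reading Fbp2 stood at 0.017, 0.055, 0.30 and 0.37 in pairs 1 to 4 and Aldh-III at -0.091, -0.20, -0.13 and -0.14, so that pair 4 was furthest out for Fbp2 and pair 2 for Aldh-III, and again none passed (limma adjusted p from 0.782 to 0.9995).

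The intervals bound what could have gone unseen. Over the 4 pairs, in the direction taken here, those of Fbp2 reached at most 1.69-fold (pair 3) and those of Aldh-III, on its lower side, a ratio of 0.682 in the same pair. Differences between pools within these intervals remain possible with 2 arrays per pair. The intervals are unadjusted and rest on technical spread only, and their ends are not a limit of detection.

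Few clones could be matched to other listed dehydrogenases. Here and below, a listed gene had a clone if any of the 2833 clones with 1 gene symbol was annotated to it. Whether the remaining clones of the array hold more of these genes was not known. Of 17 alcohol and aldehyde dehydrogenases listed, 5 had a clone, Fbp2 and Aldh-III included, and 0 of the 5 passed in the dye component in either direction by limma, adjusted (8.56% of all clones) or unadjusted (26.5%). The median of the list was 0.13, against 0.0044 over all clones. P5CDh1, which oxidises an intermediate of proline breakdown, stood at 0.13 ± 0.14 (SD, n = 4 pairs), and CG8665, a relative of the mammalian formyltetrahydrofolate dehydrogenases, at 0.16 ± 0.13. Aldh7A1, a relative of the human lysine-degrading enzyme of that name, stood at -0.063 ± 0.28. Within the aldehyde dehydrogenase family the clones thus lay on either side of 0. None of the 5 passed in the F-test or in pair 3.

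Of 48 short-chain dehydrogenases and reductases, the family of Adh and Fbp2, 6 had a clone and 0 of 6 passed by limma in the dye component (8.56% of all clones adjusted, 26.5% unadjusted), in the F-test (0%), or in pair 3 (3.20%). Their median dye component was 0.0087. Dhrs4, an oxidoreductase named after its mammalian relative, stood at 0.23 ± 0.27 (SD, n = 4 pairs), and at 0.096 without pair 2. CG13284 stood at -0.19 ± 0.21, CG8888 at -0.14 ± 0.15, CG6012 at -0.10 ± 0.25 and CG10962 at 0.12 ± 0.18.

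Of 19 genes of acetyl-CoA use and redox, only ATPCL, the ATP citrate lyase that makes cytosolic acetyl-CoA for fatty acid synthesis, had clones. Its 2 clones stood at 0.035 ± 0.13 and -0.26 ± 0.092 (SD, n = 4 pairs, limma adjusted p = 0.798 and 0.0559). In pair 3 they stood at 0.13 and -0.66, and the second passed narrowly (limma adjusted p = 0.626 and 0.0497). With even-numbered spots only, quantile normalization, the other reading, or arrays scaled to one spread, no clone was called in pair 3, so that call ended there. Fbp2 was the only one of 6 larval fat body protein genes with a clone.

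Genes listed for other sources of RNA were described beside these values, among them genes of the male reproductive tract, a tissue that pools of females should lack. Of 7 genes listed for yolk and fat body, 2 had a clone, the lipid transport genes apolpp and Mtp. Their mean dye components were -0.093 ± 0.20 and 0.0014 ± 0.063 (SD, n = 4 pairs). By limma, 0 of 2 passed, adjusted (8.56% of all clones) or unadjusted (26.5%). In pair 3 the pool differences of apolpp and Mtp were 0.00066 and 0.25, neither of which passed. Of 21 genes of the male reproductive tract, 4 had a clone and 0 of 4 passed in the dye component by limma, with 1 at an unadjusted p under 5%, against 8.56% and 26.5% of all clones. These were the sperm tail gene dj (-0.052 ± 0.10), the testis tubulin betaTub85D (0.22 ± 0.27), the seminal fluid gene Acp36DE (0.00085 ± 0.053) and the testis gene ocn (-0.38 ± 0.29). The ocn mean was -0.12 without the normal-label array of pair 3 and -0.51 with the reversed-label one left out. Both are means over 7 arrays taken as independent, in which the pool difference of pair 3 does not cancel. In pair 3 the pool difference of ocn was -1.36 and passed (limma adjusted p = 0.0316). That call ended under the same 4 settings as that of ATPCL, and neither call passed at a 1% threshold. Under the remaining settings these calls were not followed. The pair 3 values of dj, betaTub85D and Acp36DE were -0.43, 0.40 and -0.33, and none of them passed. The median of the 4 in that pair was -0.38, against 0.0048 over all clones, and its part in the values of Fbp2 and Aldh-III was not tested. Fewer cells of a type and less RNA per cell cannot be told apart in such pools.

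**Figure D4:**
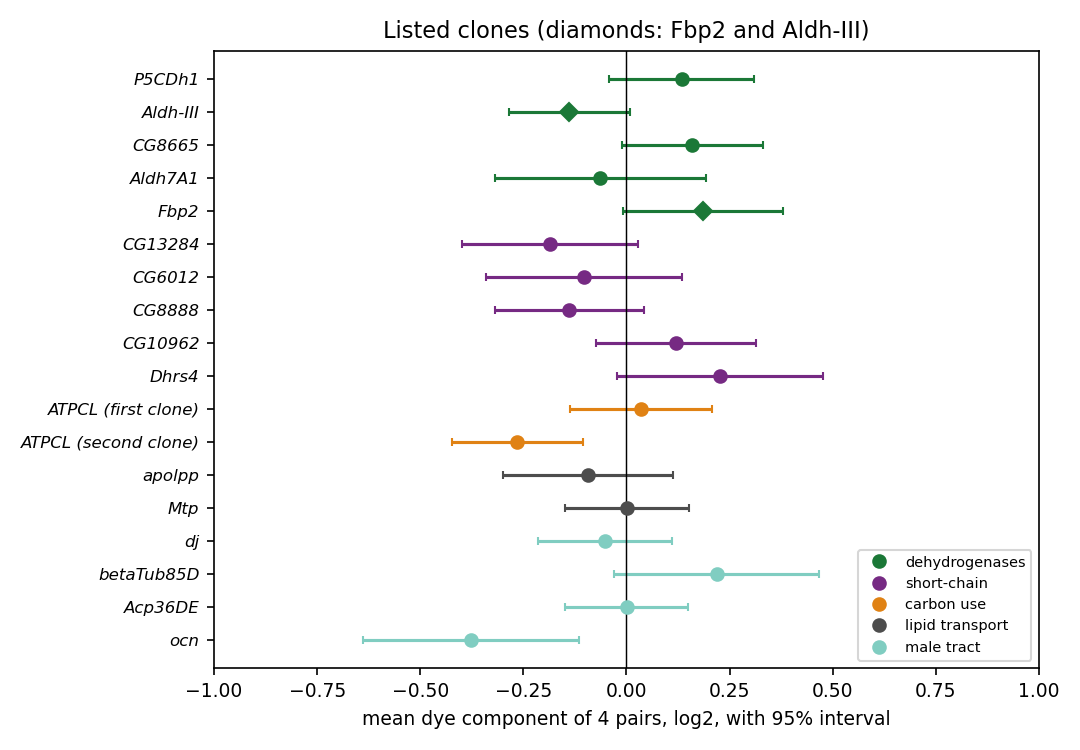
Mean dye component over 4 pairs (x axis, log2 units) with its 95% limma interval (bars) for each listed clone (y axis), coloured by list, with Fbp2 and Aldh-III as diamonds. Fbp2 at 0.19 and Aldh-III at -0.14 lie on opposite sides of 0 among the other dehydrogenases, and none of the clones passed the adjusted threshold.

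Likeness to each gene was ranked by Pearson's r over the 8 arrays (4 pairs, shared RNA within a pair) among 2832 clones with 1 symbol, as a description. The clones most like Fbp2 were those of DIP2 (r = 0.978), CG11241 (0.955) and CG32452 (0.953). Those most like Aldh-III were CG12581 (0.982), the synaptic vesicle gene nSyb (0.971) and the kinase gene Nuak (0.965). A second clone of CG12581 had r = -0.77 with Aldh-III, so clones of that gene did not follow each other. Fbp2 and Aldh-III themselves had r = -0.80. With ranks in place of values, only CG11241 and nSyb stayed among the 3 most like clones, and DIP2 fell to place 245 of 2832. The highest r that an ordinary clone reaches among so many was not computed.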

How the data were processed

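Total RNA of 8 ethanol-sprayed pools was labelled directly with Cy3 or Cy5 (80 µg per labelling, per the labels' protocols) and hybridized on 8 two-colour arrays. The authors deposited 1 log2 ratio per spot. The log base is not stated, and base 2 was assumed because the largest value was 17.5. For scanning, background correction and normalization, the method is not given in the sources used here. Array medians within 0.0023 of 0 show that the values had been centred. No intensities were used, so no filter on dim spots could be applied.

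Each array's median was subtracted and spots 2k-1 and 2k were averaged, giving 8448 clones. Platform annotation gave 1 symbol to 2833 clones (2377 genes), updated by Entrez identifier in the RefSeq table of GCF_000001215.4, used for names and neighbours only. The labels do not name the numerator. Arrays of opposite label and different pair correlated below 0 in 9 of 12 cases (median -0.16), so reversed-label arrays were turned in sign for the dye component.

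Models were fitted across all clones with limma 3.58.1 (R 4.3.3), and p-values were adjusted by the Benjamini-Hochberg method with a threshold of 5%. The fits were also run on simulated independent arrays with known changes added. Those arrays had no within-pair correlation and no other pool differences, so that run cannot show how well the tests are calibrated on these data. A pair was 1 replicate because both its arrays carried the same RNA, which the labels give (within-pair residual correlation -0.27 in the dye fit). The number of arrays limits the precision. Named were all clones of both genes, all clones of lists with 6 or fewer, and the 3 most like clones. Genes, lists and orientation were chosen with earlier results of these data known.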

Additional observations from a re-analysis of the deposited data

How the results depend on the processing

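Neither Fbp2 nor Aldh-III passed 5% in the dye, even-odd, F or single-pair test under any setting run. The dye components kept their signs in all 16 settings, at 0.078 to 0.25 for Fbp2 and -0.18 to -0.075 for Aldh-III (limma adjusted p 0.148 to 0.899 and 0.166 to 0.892). With the pair as a replicate block on 8 arrays they were 0.19 and -0.14 (adjusted p = 0.153 and 0.166), and no call for these genes changed.
Values that turned in sign, none of them called, were as follows. With arrays scaled to one spread and with quantile normalization, the pair 1 difference of Aldh-III was 0.0068 and 0.0073, and the dye component of Mtp -0.019 and -0.016. With odd-numbered spots only, the even-odd mean of Fbp2 was -0.013 and its pair 4 difference -0.17. With even-numbered spots only, the pair 1 differences of Aldh-III and Fbp2 were 0.023 and 0.085, and the dye components of Mtp, dj and Acp36DE -0.0063, 0.14 and -0.11. If reversed-label arrays are not turned in sign (the other reading), the pair 2 differences of Aldh-III and Fbp2 were -0.20 and 0.055, the pair 1 difference of Fbp2 0.017, and the dye components of CG8665, CG6012, the first ATPCL clone and Acp36DE -0.066, 0.075, -0.021 and -0.11.
The counts of called clones moved far more. The dye component, with 723, had 286 with scaled arrays, 270 with quantile normalization, 51 and 187 with odd-numbered and even-numbered spots, 3 at a 1% threshold, 0 with no replicate block and 0 with the other reading, where the even-odd test took the 723. Pair 3, with 270, had 0, 0, 8 and 0 under the first 4 of these, 3 at a 1% threshold and 0 with the other reading. As rank correlations, the clones of CG12581, Nuak, DIP2 and CG32452 had 0.905, 0.881, 0.714 and 0.929 with their gene.
With the other reading the pair 4 difference of Fbp2 kept its sign but was 0.37, against 0.012. Leaving out pairs 1, 2, 3 and 4 in turn gave 3, 4, 21 and 359 dye calls, and leaving out the reversed-label or the normal-label array of pair 3, with 7 arrays taken as independent, 501 and 0. Pair 3 calls were 2, 3 and 157 without pairs 1, 2 and 4, and 87 and 23 without its reversed-label or normal-label array. F-test calls were at most 12 (without the normal-label array of pair 3), against 0. Over these 6 settings the even-odd mean of Fbp2 ran from -0.021 to 0.13 and that of Aldh-III from -0.13 to -0.014, and the dye component from -0.19 to 0.019 for Aldh7A1, -0.00042 to 0.090 for the first ATPCL clone, -0.026 to 0.047 for Mtp, -0.12 to 0.00016 for dj and -0.047 to 0.047 for Acp36DE. The array of normal label in pair 3 was left out as a choice made after seeing the data. Leaving out a pair leaves fewer degrees of freedom. Leaving out a single array also changed the model of the dye and even-odd tests, from pair means to independent arrays. With no replicate block and all 8 arrays, the dye component already had 0 calls. The shifts from a single array therefore mix both changes, and their cause was not tested.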
